A study of Homo sapiens with 9 samples.

Results

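The unfolded protein response (UPR) sensors and factors examined here were 10 genes, listed by name for their place in the pathway. They comprised the sensors ERN1, EIF2AK3 and ATF6, the transcription factors XBP1, ATF4, DDIT3, ATF3 and CEBPB, and the feedback genes PPP1R15A and TRIB3. Each was found by its symbol among the 58395 deposited Ensembl identifiers, and all 10 were among the 16761 genes tested. The RNA came from MDA-MB-231, a human triple-negative breast cancer cell line, in which ZIP7 (SLC39A7), a transporter that releases zinc from the endoplasmic reticulum (ER), was knocked down. All cells were reverse transfected with one of 3 siRNAs and collected 96 h later, namely the non-targeting siNC, siZIP7_1 and siZIP7_2, with 3 libraries each. Both ZIP7 reagents were single siRNAs from different suppliers, so sequence-specific effects of either siRNA cannot be told apart from effects of losing ZIP7. The study asked how ZIP7 knockdown changed gene expression, and the question here was which arms of the UPR moved with it.

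The UPR answers an excess of unfolded protein in the ER through 3 membrane sensors. IRE1, encoded by ERN1, is a kinase and endonuclease that removes an intron from XBP1 mRNA, which yields an active factor for ER chaperone, translocation and degradation genes. PERK, encoded by EIF2AK3, phosphorylates the translation factor eIF2α, which slows protein synthesis but favours translation of ATF4, and ATF6 is cut in the Golgi to release a factor that acts on chaperone genes. These steps are changes of splicing, phosphorylation, translation and cleavage, which a count of reads per gene does not measure. XBP1 and ATF4 in particular can be activated with no rise in their mRNA.

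The promoters were searched for the elements through which these factors are known to act, and those of 3 of the 10 genes held an exact match. All 10 had a promoter in the RefSeq table, and the search covered the 250 bases before each RefSeq start on GRCh38.p14, on both strands. The ER stress element (ERSE) was taken as CCAAT and CCACG with 9 bases between them, the XBP1-type element (UPRE) as TGACGTGG, the ATF4-type element (CARE) as TGATGNAA and the cAMP response element (CRE) as TGACGTCA. A promoter of XBP1 held the ERSE, one of ATF3 the CARE and one of PPP1R15A the CRE, and no promoter of the 10 genes held the UPRE. Among all 27305 genes with a RefSeq promoter, 0.0916% held the ERSE, 0.780% the UPRE, 3.89% the CARE and 2.03% the CRE. The sequences are shown because the XBP1 and HSPA5 promoters share the ERSE while the mRNAs of these genes moved in opposite directions, and because ATF3 and PPP1R15A were among the genes that rose with both siRNAs. HSPA5, which encodes the ER chaperone BiP, was chosen for this after its values were seen. Each sequence runs 5′ to 3′ on the strand of its gene, without bases that lie inside the GENCODE gene, and the capitals mark the element. They lie at chr22:28800598-28800819 (minus strand) for XBP1, chr9:125241344-125241593 (minus strand) for HSPA5, chr1:212565157-212565333 (plus strand) for ATF3 and chr19:48872171-48872391 (plus strand) for PPP1R15A. A match of letters describes the promoter and is not evidence of binding. Only these exact letters within 250 bases were searched. A gene without a match may thus hold a variant form or an element farther away.
XBP1: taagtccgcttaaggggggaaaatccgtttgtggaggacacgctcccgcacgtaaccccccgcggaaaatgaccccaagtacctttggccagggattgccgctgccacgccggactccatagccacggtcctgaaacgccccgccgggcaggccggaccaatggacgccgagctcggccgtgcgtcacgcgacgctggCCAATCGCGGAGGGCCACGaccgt
HSPA5: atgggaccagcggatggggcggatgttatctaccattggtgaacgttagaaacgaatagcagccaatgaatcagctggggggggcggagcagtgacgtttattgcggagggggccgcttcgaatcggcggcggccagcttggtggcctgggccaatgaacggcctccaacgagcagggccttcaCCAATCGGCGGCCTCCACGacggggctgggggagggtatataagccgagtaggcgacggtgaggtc
ATF3: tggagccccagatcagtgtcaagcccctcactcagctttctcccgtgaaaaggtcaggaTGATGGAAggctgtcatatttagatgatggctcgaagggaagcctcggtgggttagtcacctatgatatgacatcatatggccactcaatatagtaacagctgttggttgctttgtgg
PPP1R15A: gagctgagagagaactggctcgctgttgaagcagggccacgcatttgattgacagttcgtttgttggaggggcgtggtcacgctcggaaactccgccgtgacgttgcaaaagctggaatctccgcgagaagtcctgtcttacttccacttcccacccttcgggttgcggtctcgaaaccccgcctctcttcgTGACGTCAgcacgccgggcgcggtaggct

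Among genes downstream of each arm, the ERSE was in the promoters of 4 of 11 ATF6 targets (CALR, CRELD2, HSP90B1 and HSPA5), and the UPRE in those of 4 of 20 IRE1-XBP1 targets (DNAJC10, SEC62, SRP19 and SSR3). The CARE was in those of 6 of 24 PERK-ATF4 targets (AARS1, ASNS, CEBPG, CHAC1, GARS1 and JDP2). The lists also held other elements. Among IRE1-XBP1 targets, SERP1 had the ERSE and SRPRB the CARE. Among ATF6 targets, HYOU1 had the UPRE and HERPUD1 the CARE, and among PERK-ATF4 targets ALDH18A1 had the UPRE. Other forms of these elements were not searched, so HERPUD1 and the other genes named may hold further elements. Only genes with a RefSeq promoter were counted, which left out SEC24D, DERL3, PSPH, SHMT2, ALDH1L2, PYCR1, SLC7A11 and NUPR1.

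The libraries held 24153785 to 30454419 reads on genes, and the 10 genes had 333 to 12603 reads each. Expression is given as CPM, read counts scaled to a common library size with TMM factors, and each comparison used the quasi-likelihood test of edgeR, adjusted by Benjamini-Hochberg over all tested genes. In siNC, siZIP7_1 and siZIP7_2, SLC39A7 was at 329 ± 12.5, 35.6 ± 2.83 and 19.2 ± 1.45 CPM (SD, n = 3 each), low in the groups labelled as its knockdown. Both comparisons against siNC use the same siNC libraries and are therefore not independent. The labels do not say whether the libraries of a group came from separate cultures, so the p-values measure the spread between libraries, which may be technical. Before TMM scaling, VIM, CD44, AXL and CAV1, which this line expresses, were at 168 to 5481 CPM in the libraries, and ESR1 and PGR, which it lacks, at 0 to 0.581 CPM. Of the other genes expected to be low, CDH1 was at 0.354 to 4.68 CPM, EPCAM at 3.79 to 10.7, GATA3 at 8.59 to 16.0 and ERBB2 at 56.6 to 95.7 CPM. Of 4 markers of renal lines, which the study also grew, PAX2 and CDH16 had 0 to 2 reads and CA9 0.227 to 2.32 CPM, while PAX8 averaged 15.4, 3.71 and 30.3 CPM in siNC, siZIP7_1 and siZIP7_2. In bulk RNA, fewer cells of a kind and less RNA per cell cannot be told apart.

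All 10 genes passed the threshold of 0.05 in both comparisons, but most of the transcriptome did too. With siZIP7_1, 5 genes were higher and 5 lower than with siNC, where 70.7% of all tested genes were past the threshold, 34.8% higher and 35.9% lower. With siZIP7_2, 7 were higher and 3 lower, where 77.8% of all genes were past it, 38.5% higher and 39.3% lower. The ranges of the libraries did not overlap between siNC and either ZIP7 siRNA for any of the 10 genes, against 72.1% of all genes with siZIP7_1 and 78.7% with siZIP7_2. All genes include some with far fewer reads than these 10. EIF2AK3, DDIT3, ATF3 and PPP1R15A were higher with both siRNAs, and XBP1 and ATF4 lower with both. ERN1, ATF6, CEBPB and TRIB3 moved in opposite directions. Over all genes, 17.7% were higher with both siRNAs, 20.8% lower with both and 18.7% opposite. The median size of the log2 fold change over all genes was 0.48 with siZIP7_1 and 0.59 with siZIP7_2, so the small changes described below are ordinary for these libraries.

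**Figure D1:**
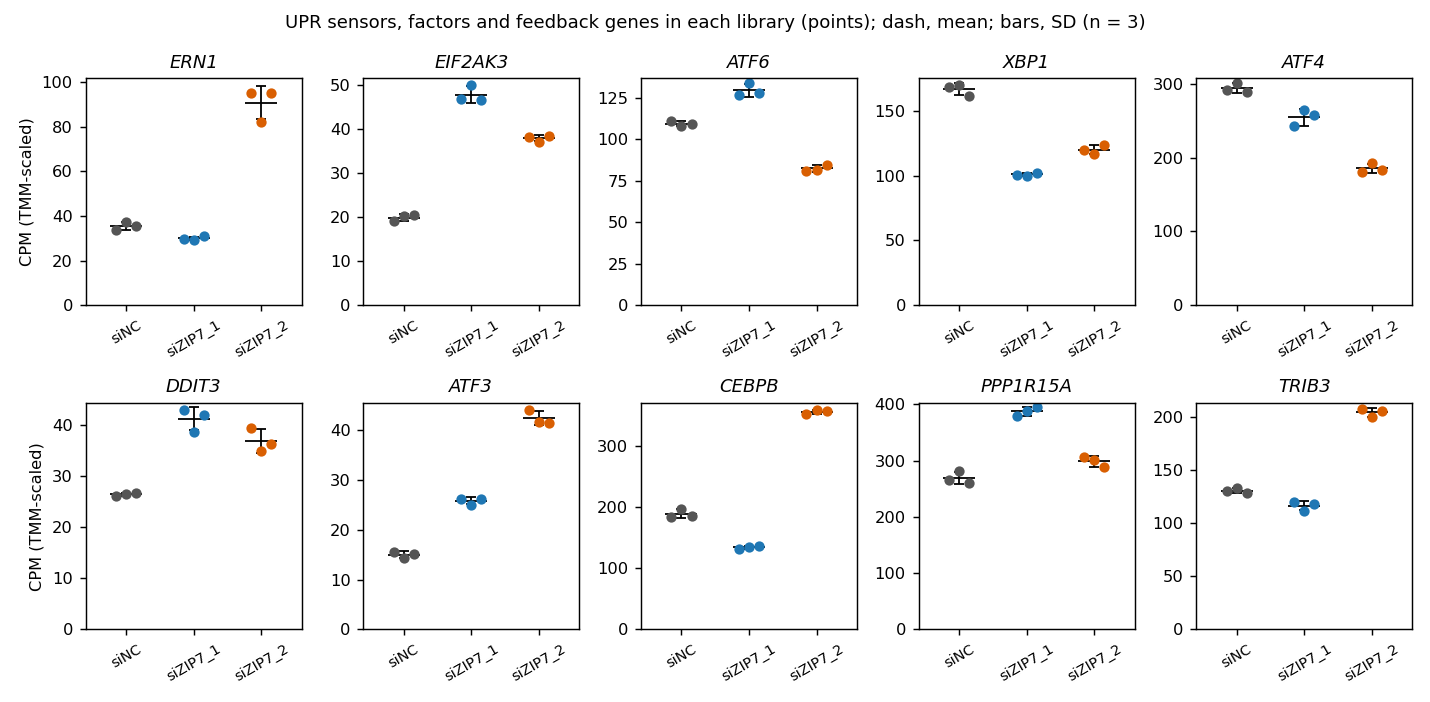
CPM after TMM scaling (linear axis from 0) of the 10 UPR sensors, factors and feedback genes in each library. Points are libraries, dashes the mean and bars the SD of 3 libraries per siRNA. ERN1 is far above siNC with siZIP7_2, at 90.8 CPM on average, and just below it with siZIP7_1, while EIF2AK3 and ATF3 are above siNC with both siRNAs and XBP1 and ATF4 below it.

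The sensors did not move together. EIF2AK3, the PERK gene, was the one sensor gene that rose with both siRNAs. It was at 19.1, 20.1 and 20.4 CPM in the siNC libraries, 46.7, 49.8 and 46.4 CPM with siZIP7_1, and 38.2, 37.0 and 38.3 CPM with siZIP7_2. Every siZIP7_1 library was thus above every siZIP7_2 library, and both groups were well above siNC. Against siNC, the log2 fold change with siZIP7_1 was 1.26 (SE 0.059, Benjamini-Hochberg adjusted p = 1.78e-17, edgeR quasi-likelihood test) and that with siZIP7_2 was 0.93 (SE 0.060, adjusted p = 2.89e-14, same edgeR test). The first was larger in size than 85.1% of all tested genes. EIF2AK3 lies at chr2:88556741-88627576 on the minus strand of GRCh38 (GENCODE 29), and 15.1% of its exonic length overlaps AC062029.1 and AC104134.1. The counts of AC062029.1 averaged 0.564, 2.26 and 1.18 CPM in siNC, siZIP7_1 and siZIP7_2, and the strand setting of the counting is not given in the sources used here.

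ERN1, the IRE1 gene, separated the siRNAs. Its expression was 33.8, 37.2 and 35.7 CPM with siNC, 29.8, 29.1 and 30.8 CPM with siZIP7_1, and 95.2, 82.2 and 95 CPM with siZIP7_2. The siZIP7_1 libraries all lay just under siNC and the siZIP7_2 libraries far above. With siZIP7_2, ERN1 rose by 1.35 on the log2 scale (SE 0.059, Benjamini-Hochberg adjusted p = 3.08e-18, edgeR quasi-likelihood test), a 2.55-fold increase, and fell by 0.25 on the log2 scale with siZIP7_1 (SE 0.063, adjusted p = 9.38e-04, same edgeR test). It lies at chr17:64039142-64130819 on the minus strand.

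ATF6 was also split, in the other direction and by less. It was at 111, 108 and 109 CPM with siNC, 127, 134 and 128 CPM with siZIP7_1, and 81.0, 81.8 and 84.5 CPM with siZIP7_2. Its libraries therefore formed 3 separate bands, with siZIP7_1 on top and siZIP7_2 at the bottom. Against siNC, the log2 fold change with siZIP7_1 was 0.24 (SE 0.046, Benjamini-Hochberg adjusted p = 2.50e-05, edgeR quasi-likelihood test) and that with siZIP7_2 was -0.41 (SE 0.047, adjusted p = 4.84e-09, same edgeR test). Each was smaller than the median change of all genes. ATF6 lies at chr1:161766294-161964070 on the plus strand.

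The factors directly below IRE1 and PERK, XBP1 and ATF4, were both lower at the mRNA level with each siRNA. XBP1 was at 169, 170.4 and 161 CPM with siNC, 101, 100.2 and 103 CPM with siZIP7_1, and 119.9, 117 and 124 CPM with siZIP7_2. No ZIP7 knockdown library reached the siNC range, and siZIP7_1 gave the lowest values. Against siNC, the log2 fold change with siZIP7_1 was -0.72 (SE 0.045, Benjamini-Hochberg adjusted p = 1.82e-14, edgeR quasi-likelihood test) and that with siZIP7_2 was -0.47 (SE 0.045, adjusted p = 1.46e-10, same edgeR test). The gene counts sum the spliced and unspliced forms of the mRNA. XBP1 lies at chr22:28794555-28800597 on the minus strand and has an annotated pseudogene, XBP1P1, that could take part of its reads.

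ATF4, the main translational target of PERK signalling and a regulator of amino acid genes, showed the opposite order between the siRNAs. It was at 293, 302 and 289 CPM with siNC, 243, 264 and 258 CPM with siZIP7_1, and 181, 193 and 184 CPM with siZIP7_2. All siZIP7_2 libraries were below all siZIP7_1 libraries, which were below siNC. ATF4 fell by 0.21 on the log2 scale with siZIP7_1 (SE 0.046, Benjamini-Hochberg adjusted p = 2.46e-04, edgeR quasi-likelihood test) and by 0.66 with siZIP7_2 (log2 fold change -0.66, SE 0.047, adjusted p = 1.96e-13, same edgeR test). It lies at chr22:39519695-39522685 on the plus strand, and the annotation names the pseudogenes ATF4P1 to ATF4P4.

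The stress-induced factors further down, DDIT3 and ATF3, rose with both siRNAs. ATF3, a stress-inducible repressor and activator of the ATF/CREB family, was at 15.6, 14.3 and 15.1 CPM with siNC, 26.1, 25 and 26.2 CPM with siZIP7_1, and 43.9, 41.6 and 41.4 CPM with siZIP7_2. The groups formed 3 steps without overlap. With siZIP7_1 the log2 fold change of ATF3 reached 0.78 (SE 0.066), a 1.72-fold increase (adjusted p = 1.26e-11, edgeR quasi-likelihood test). With siZIP7_2 it was 1.49 (SE 0.064), a 2.81-fold increase (adjusted p = 1.63e-18, same edgeR test), and siZIP7_2 exceeded siZIP7_1 by a log2 difference of 0.71 (SE 0.059, Benjamini-Hochberg adjusted p = 5.65e-12, edgeR quasi-likelihood test). The increase with siZIP7_2 was larger in size than 85.0% of all genes, and ATF3 lies at chr1:212565334-212620777 on the plus strand, where the promoter with the CARE is the one at its 5′ end.

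DDIT3, which encodes the pro-apoptotic factor CHOP, was at 26.0, 26.5 and 26.7 CPM with siNC, 42.9, 38.6 and 41.9 CPM with siZIP7_1, and 39.4, 34.9 and 36.2 CPM with siZIP7_2. Both knockdown groups were above siNC and their ranges overlapped each other. Against siNC, the log2 fold change with siZIP7_1 was 0.64 (SE 0.061, Benjamini-Hochberg adjusted p = 1.90e-10, edgeR quasi-likelihood test) and that with siZIP7_2 was 0.48 (SE 0.062, adjusted p = 5.85e-08, same edgeR test). The difference between the siRNAs, -0.16 (adjusted p = 0.0149, same edgeR test), was lost under other scalings, where the adjusted p reached 0.230, and when siZIP7_1 replicate 1 (adjusted p = 0.0648), siZIP7_2 replicate 2 (0.0935) or siZIP7_2 replicate 3 (0.0527) was left out. DDIT3 lies at chr12:57516588-57521737 on the minus strand, and 39.6% of its exonic length overlaps MARS, MBD6 and AC022506.1. MARS was lower with both siRNAs (log2 fold change -0.29 and -0.22), and MBD6 was higher with siZIP7_1 (0.54) and lower with siZIP7_2 (-0.25). The part of these reads in the DDIT3 counts was not tested.

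CEBPB, which encodes a bZIP factor that pairs with CHOP and ATF4, was the most divergent of the factors. It was at 185, 198 and 186 CPM with siNC, 131, 135 and 136 CPM with siZIP7_1, and 353, 359 and 358 CPM with siZIP7_2. The siZIP7_1 libraries were all below siNC and the siZIP7_2 libraries all far above it. It fell by 0.49 on the log2 scale with siZIP7_1 (SE 0.046, Benjamini-Hochberg adjusted p = 9.02e-11, edgeR quasi-likelihood test) and rose by 0.91 with siZIP7_2 (SE 0.045, adjusted p = 5.07e-17, same edgeR test). CEBPB lies at chr20:50190734-50192689 on the plus strand, with 11.8% of its exonic length under CEBPB-AS1, which averaged 5.23, 5.17 and 8.27 CPM in siNC, siZIP7_1 and siZIP7_2.

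The feedback genes differed from each other. PPP1R15A encodes GADD34, which directs a phosphatase to eIF2α and so restores translation, and it was at 265, 281 and 260.2 CPM with siNC, 379, 388 and 395 CPM with siZIP7_1, and 307, 301 and 288 CPM with siZIP7_2. The siZIP7_1 libraries stood clearly apart, while the siZIP7_2 libraries were only just above siNC. Against siNC, the log2 fold change with siZIP7_1 was 0.53 (SE 0.046, Benjamini-Hochberg adjusted p = 2.77e-11, edgeR quasi-likelihood test) and that with siZIP7_2 was 0.15 (SE 0.046, adjusted p = 3.97e-03, same edgeR test). The value with siZIP7_2 was 0.10 (adjusted p = 0.0853) with no low-count filter and 0.26 with upper-quartile scaling. PPP1R15A lies at chr19:48872392-48876057 on the plus strand, just after the CRE shown above.

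TRIB3, a pseudokinase induced by ATF4 and CHOP that restrains ATF4 activity, was at 130.2, 133 and 128 CPM with siNC, 119.9, 112 and 118 CPM with siZIP7_1, and 208, 199 and 205 CPM with siZIP7_2. It was high in the siZIP7_2 libraries, and in the siZIP7_1 libraries it was slightly under siNC. With siZIP7_2, TRIB3 rose by 0.65 on the log2 scale (SE 0.046, Benjamini-Hochberg adjusted p = 1.88e-13, edgeR quasi-likelihood test) and fell by 0.16 on the log2 scale with siZIP7_1 (SE 0.046, adjusted p = 2.46e-03, same edgeR test). It lies at chr20:362835-397559 on the plus strand.

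**Figure D2:**
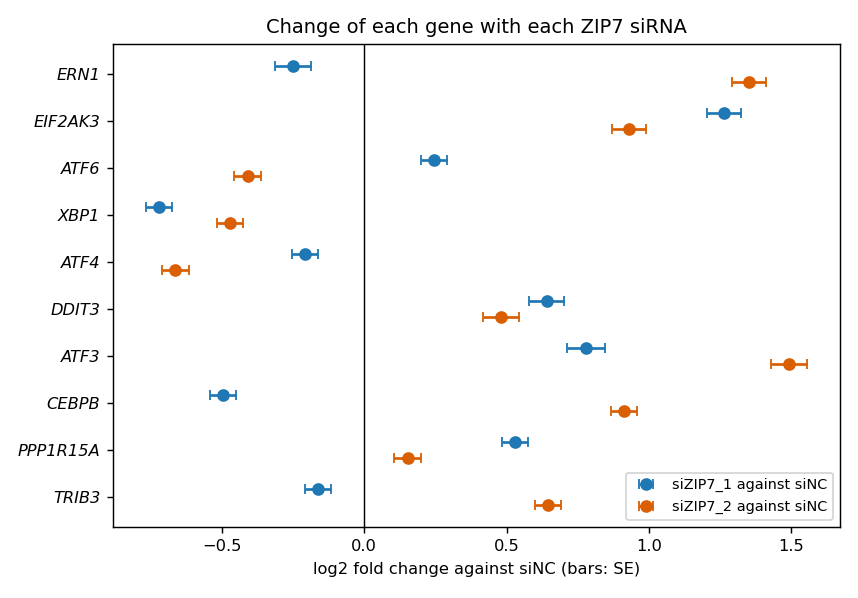
Log2 fold change against siNC of the 10 genes with siZIP7_1 (blue) and siZIP7_2 (orange). Points are edgeR estimates from 3 libraries per group and bars their SE. EIF2AK3, DDIT3, ATF3 and PPP1R15A lie to the right of 0 with both siRNAs, XBP1 and ATF4 to the left, and ERN1 shows the widest gap, from -0.25 to 1.35.

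The direct comparison of siZIP7_2 with siZIP7_1 put 5 genes higher and 5 lower past the threshold, where 78.7% of all genes were past it, 38.1% higher and 40.6% lower. ERN1 (log2 difference 1.60), CEBPB (1.41), TRIB3 (0.81), ATF3 (0.71) and XBP1 (0.25) were higher with siZIP7_2. ATF6 (-0.65), ATF4 (-0.46), PPP1R15A (-0.38), EIF2AK3 (-0.33) and DDIT3 (-0.16) were lower. The ranges of these groups did not overlap for 9 of the 10 genes, against 79.7% of all genes. Between no pair of the 3 groups did the ranges overlap for 9 of the 10, against 48.9% of all genes. Each of the 10 had at least 333 reads in every library, and all genes include some with far fewer. Shares among genes of like read count were not taken. Tested against a change of 1.8-fold (edgeR's glmTreat) in place of no change, EIF2AK3 passed with siZIP7_1, ERN1 and ATF3 passed with siZIP7_2, and ERN1 and CEBPB passed between the siRNAs. These 1, 2 and 2 of the 10 genes were all higher, and none was lower. Of all genes, 16.9% passed with siZIP7_1 (8.6% higher and 8.32% lower), 24.7% with siZIP7_2 (14% higher and 10.7% lower) and 28.2% between the siRNAs (15.2% higher and 13% lower). Counts of 1 or 2 in 10 genes are too few to be set apart from these shares.

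Per kilobase of exon, ATF4 was the most abundant of the 10 mRNAs in siNC, PPP1R15A in siZIP7_1 and CEBPB in siZIP7_2. In siNC the levels were 117 RPKM for ATF4, 96.8 for CEBPB, 86.9 for PPP1R15A, 55.1 for XBP1, 38.0 for TRIB3, 20.2 for DDIT3, 13.9 for ATF6, 3.71 for ATF3, 3.65 for EIF2AK3 and 3.27 for ERN1. ATF3 and EIF2AK3 overlapped between libraries, and each other gene was apart from its neighbour in this order. With siZIP7_1, PPP1R15A was at 125 RPKM, ATF4 at 101 and CEBPB at 68.7, and TRIB3 (33.9) and XBP1 (33.4) overlapped. With siZIP7_2, CEBPB was at 182 RPKM, PPP1R15A at 96.6 and ATF4 at 73.9, and ATF3 and ATF6 overlapped. The sensors stayed among the less abundant of the 10 mRNAs in each group. ERN1 was last in siNC and siZIP7_1, and EIF2AK3 was last in siZIP7_2 at 6.96 RPKM. Across groups, the within-group CV of the 10 genes was 0.943% to 8.17%, highest for ERN1 with siZIP7_2.

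Of the genes downstream of IRE1-XBP1 and ATF6, larger shares than of all genes were higher with both siRNAs when tested against no change. Tested against a 1.8-fold change, 4.76% of IRE1-XBP1 targets and 0% of ATF6 targets were higher with both, beside 3.00% of all genes. For genes downstream of PERK-ATF4 the order depended on the scaling and on the low-count filter. These differences in share were not tested. Each gene was placed in a single list, although XBP1 and ATF6 both act on chaperone genes. The shares therefore cannot be assigned to a single arm. Of 21 IRE1-XBP1 targets, which serve ER translocation, folding and degradation, 13 were higher and 5 lower with siZIP7_1, 14 higher and 4 lower with siZIP7_2, and 9 higher and 1 lower with both. The list's median log2 fold change with siZIP7_1 was 0.38, and with siZIP7_2 it was 0.30, against -0.0069 and -0.0018 over all genes. Shares of 42.9% higher and 4.76% lower with both siRNAs stand beside 17.7% and 20.8% of all genes. DNAJB9, an ER co-chaperone that binds IRE1, averaged 21.3, 42.5 and 76.8 CPM in siNC, siZIP7_1 and siZIP7_2 (log2 fold change 0.99 and 1.85). EDEM1, which sends misfolded glycoproteins to degradation, was at 85.6, 193 and 144 CPM in the same order (1.17 and 0.75). At the other end, SEC31A, a coat protein of ER export vesicles, was higher with siZIP7_1 (0.14) and lower with siZIP7_2 (-1.05). LMAN1, an ER-Golgi cargo receptor, was lower with siZIP7_1 (-0.81), and with siZIP7_2 its value was -0.08 (Benjamini-Hochberg adjusted p = 0.165, edgeR quasi-likelihood test).

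Of 12 ATF6 targets, mainly ER chaperones and degradation factors, 10 were higher and 2 lower with siZIP7_1, 10 higher and 1 lower with siZIP7_2, and 9 higher and 1 lower with both. The list's median log2 fold change with siZIP7_1 was 0.49, and with siZIP7_2 it was 0.39. HERPUD1, a component of ER-associated degradation, was at 85.5, 149 and 324 CPM in siNC, siZIP7_1 and siZIP7_2, log2 fold changes of 0.80 and 1.92. SDF2L1, an ER chaperone cofactor, was at 16.3, 31.4 and 31.7 CPM (0.95 and 0.96). PDIA4, a protein disulfide isomerase, changed least among the named genes, with 0.13 and 0.17, and SEL1L, the adaptor of an ER ubiquitin ligase, was lower with siZIP7_1 (-0.69) and higher with siZIP7_2 (0.38). HSPA5, whose promoter is shown above, was higher with both, with log2 fold changes of 0.54 and 1.12. The gene lower with both was DERL3, at 0.685 CPM or less on average in each group, and it and HSPA5 were named after their values were seen. Higher with both siRNAs were thus 75% of the list and 17.7% of all genes, while ATF6 mRNA itself rose with siZIP7_1 and fell with siZIP7_2.

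Genes downstream of PERK-ATF4, which supply amino acids and charge tRNAs, went both ways. Of 29 tested, 9 were higher and 14 lower with siZIP7_1, 13 higher and 14 lower with siZIP7_2, 4 higher and 9 lower with both, and 8 opposite. The list's median log2 fold change with siZIP7_1 was -0.07, and with siZIP7_2 it was 0.02. VLDLR, a lipoprotein receptor, was at 31.5, 34.4 and 91.2 CPM in siNC, siZIP7_1 and siZIP7_2, with a log2 fold change of 0.13 for siZIP7_1 (Benjamini-Hochberg adjusted p = 0.0630, edgeR quasi-likelihood test) and a rise of 1.53 with siZIP7_2. STC2, a secreted glycoprotein, rose with both, from 4.84 CPM to 7.89 and 8.98 CPM. SLC6A9, a glycine transporter, was at 81.1, 26.2 and 36.9 CPM, lower with both siRNAs (-1.63 and -1.14). ALDH18A1, which starts proline synthesis, was at 129, 94.4 and 32.3 CPM (-0.45 and -2.0). The share lower with both siRNAs was 31.0%, and the share higher with both was 13.8%, beside the 20.8% and 17.7% of all genes. The share higher with both was 24.1% with upper-quartile scaling and also with at least 10 counts in each library, where all genes were at 20.1% and 20.2%, so its side of the background turned. ALDH1L2 was not among the genes tested. The list leaves out DDIT3, ATF3, PPP1R15A and TRIB3, which also lie below PERK but were counted among the 10 genes. DDIT3, ATF3 and PPP1R15A were higher with both siRNAs, while TRIB3 moved in opposite directions. The share higher with both therefore depends on this choice of genes.

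**Figure D3:**
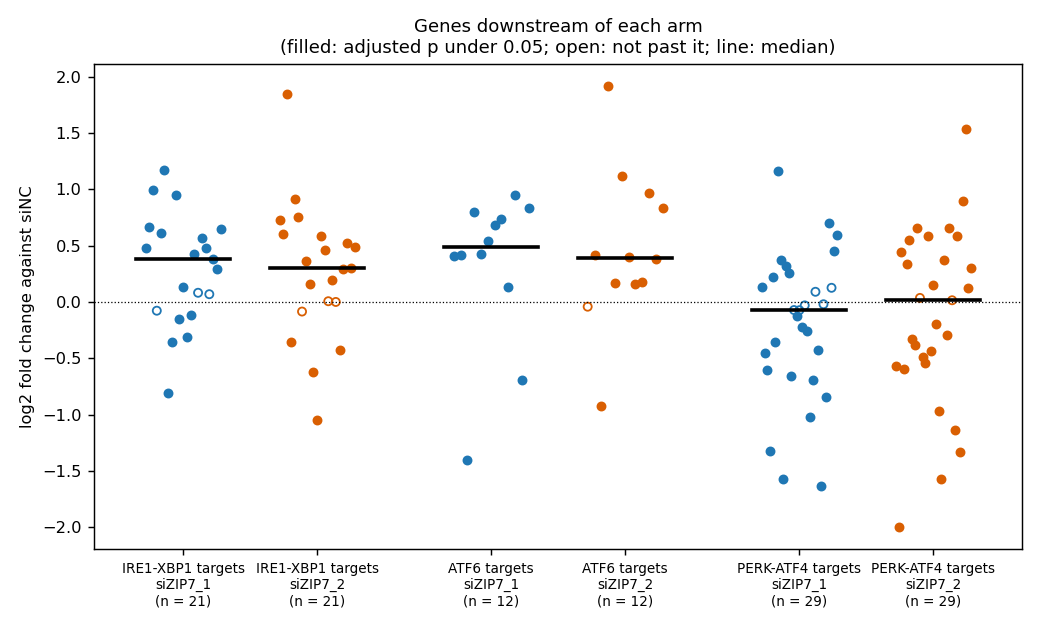
Log2 fold change against siNC of each tested gene downstream of IRE1-XBP1 (n = 21), ATF6 (n = 12) and PERK-ATF4 (n = 29). Filled points passed the adjusted p threshold of 0.05, open points did not, and lines are medians. The medians lie at 0.30 to 0.49 for the IRE1-XBP1 and ATF6 lists and at -0.07 and 0.02 for the PERK-ATF4 list.

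The 5 genes linked to CHOP and cell death were all higher with siZIP7_2, whereas 3 were higher and 2 lower with siZIP7_1. Of all genes, 38.5% were higher with siZIP7_2, and 34.8% were higher and 35.9% lower with siZIP7_1. BBC3, which encodes the BH3-only protein PUMA, was at 11.2, 20.9 and 27.7 CPM in siNC, siZIP7_1 and siZIP7_2 (log2 fold change 0.90 and 1.31). BCL2L11, which encodes BIM, was higher by 0.52 and 0.41, and ERO1A, an ER oxidase, by 0.15 and 0.14, although its library ranges overlapped siNC with both siRNAs. The genes that the siRNAs moved apart were PMAIP1, which encodes NOXA, at -0.73 and 0.77, and the death receptor gene TNFRSF10B, at -0.39 and 0.51. The share higher with both siRNAs, 60.0% of 5 genes, rests on BBC3, BCL2L11 and ERO1A and stands beside 17.7% of all genes.

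Genes for proteins that act beside the sensors moved in both directions. Of 20 sensor partners tested, 6 were higher and 10 lower with siZIP7_1, 4 higher and 12 lower with siZIP7_2, and 1 higher and 5 lower with both. Lower were thus 50% of the list with siZIP7_1, 60% with siZIP7_2 and 25% with both, beside 35.9%, 39.3% and 20.8% of all genes. The list's median log2 fold change with siZIP7_1 was -0.14, and with siZIP7_2 it was -0.22. FICD, which reversibly inactivates BiP, was the gene higher with both, at 22.8, 32.4 and 44.4 CPM in siNC, siZIP7_1 and siZIP7_2. MBTPS2, the site-2 protease that completes ATF6 cleavage, fell from 24.6 CPM to 17.3 and 9.80 CPM, log2 fold changes of -0.51 and -1.33. EIF2AK1, another eIF2α kinase, was higher with siZIP7_1 (0.79), with a value of 0.08 for siZIP7_2 (Benjamini-Hochberg adjusted p = 0.11, edgeR quasi-likelihood test). CREB3L4, a factor related to ATF6, was lower with siZIP7_2 (-1.18), and its siZIP7_1 value was -0.17 (adjusted p = 0.168, same edgeR test). ERN2, the epithelial IRE1 paralog, was not among the genes tested.

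IRE1 can also cleave other mRNAs, a process called regulated IRE1-dependent decay, and the 5 substrates listed for it did not fall together. BLOC1S1, the best known of them, was at 4.61, 5.19 and 1.65 CPM in siNC, siZIP7_1 and siZIP7_2, log2 fold changes of 0.17 (Benjamini-Hochberg adjusted p = 0.225, edgeR quasi-likelihood test) and -1.49. BLOC1S1 was lower in the siRNA group in which ERN1 was higher, but 29.8% of its exonic length overlaps other genes. A link between these changes was not tested. SCARA3, a scavenger receptor, was higher with siZIP7_1 (1.76) and had a value of 0.03 with siZIP7_2 (adjusted p = 0.836, same edgeR test). COL6A1, a collagen chain, was lower with siZIP7_1 (-1.90) and higher with siZIP7_2 (0.17), where its library ranges overlapped siNC. PDGFRB, a growth factor receptor, was higher with both (1.51 and 1.28), and so was SPARC, a matrix protein, at 0.459, 1.52 and 4.52 CPM (1.69 and 3.26).

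By distance between log2 CPM profiles centred on their means over the 9 libraries, the genes most like each of the 10 came from many functions and hold no other member. In a search of 13735 genes averaging 1 CPM or more, those nearest to ERN1 were ARID5A (distance 0.228), SRC and SEMA4D, and those nearest to EIF2AK3 were HEXIM1 (0.125), C7orf43 and SUSD6. TRIB3 had the closest match of all, PCBP4 (0.0676), then ZNF428 and AJM1. The nearest were ICMT, GNPDA1 and C15orf61 for ATF6, TICRR, WDR46 and WIZ for XBP1, STX4, RGS14 and GPR108 for DDIT3, ZSWIM8, LAYN and GLRX for ATF3, MARCH3, SLC6A6 and LAMB3 for CEBPB, and GPX4, ARNT and IFT46 for PPP1R15A. For ATF4 they were CSPP1 (0.0982), PCBP2 (0.11) and WDR53. With 3 groups of replicates, many genes share a profile of this kind, and the distance is a description of likeness only.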

How the data were processed

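The authors sequenced single reads from MDA-MB-231 cells and deposited, for each of 9 libraries, the raw counts that fell on every Ensembl gene, not normalized. The submitters' processing notes name Trim Galore 0.4.1, FastQC 0.11.2, STAR, HTSeq 0.6.1 and DESeq2 1.16.1, and the genome build and strand setting are not given in the sources used here. The counting program's summary lines were left out: reads on no feature made up 7.43% to 11.5% of a library's total, highest with siZIP7_2, and ambiguous reads 2.66% to 2.91%. Without strand, reads of overlapping genes can be lost or shared. Of the 58395 identifiers, 58275 were in GENCODE 29 of GRCh38, which gave symbols and positions. Promoter sequences were from RefSeq on GRCh38.p14.

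Groups followed the treatment labels. The counts were fitted once over all libraries in edgeR 4.0.16 under R 4.3.3 (TMM, the package's low-count filter, its quasi-likelihood test with 6 residual degrees of freedom, and Benjamini-Hochberg adjustment over 16761 genes). Standard errors are the log2 fold change over the square root of F. The biological coefficient of variation was 4.50%. RPKM values are the CPM per kilobase of exon. Libraries of one group differed by 2.58 to 6.65 in chi-square per gene and were kept apart as replicates. The steps were tested on simulated data. Alternatives were DESeq2 1.42.0, its size factors, upper-quartile scaling, other low-count filters, glmTreat at 1.8-fold, a replicate block, fits to each pair of groups, and each library left out in turn.

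The 10 genes and the lists were chosen with earlier results of these data known, and no list was tested. Named in the text are the 10 genes, SLC39A7, all CHOP-linked and IRE1-decay genes, in each other list the pair of genes with the highest and the pair with the lowest mean log2 fold change among those of at least 1 CPM past the threshold, and the 3 genes nearest to each of the 10. Exceptions are marked.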

Additional observations from a re-analysis of the deposited data

Results flagged for a closer look

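The genes ERN1, ATF6, CEBPB and TRIB3 drew attention because each passed the threshold in opposite directions with the siRNAs and also differed between them, by the quasi-likelihood test of edgeR for siZIP7_2 against siZIP7_1, Benjamini-Hochberg adjusted. The log2 difference was 1.60 for ERN1 (adjusted p = 4.17e-20), 1.41 for CEBPB (adjusted p = 1.61e-21), 0.81 for TRIB3 (adjusted p = 8.71e-16) and -0.65 for ATF6 (adjusted p = 1.64e-13). Over all tested genes, 18.7% moved in opposite directions with the siRNAs. SLC39A7 was lower with siZIP7_2 than with siZIP7_1 as well, by a log2 difference of -0.89, and the part of this in the differences was not tested.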

How the results depend on the processing

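No alternative changed the sign of any of the 10 genes in any comparison, and the counts of these genes past the threshold changed with glmTreat, through DDIT3 between the siRNAs and through PPP1R15A with no low-count filter. With glmTreat at 1.8-fold, 1 gene was higher and 0 lower with siZIP7_1, 2 and 0 with siZIP7_2, and 2 and 0 between the siRNAs, beside 16.9%, 24.7% and 28.2% of all genes in either direction. With both siRNAs it left 1 IRE1-XBP1 target higher and 0 lower, 0 ATF6 targets higher and 0 lower, and 0 PERK-ATF4 targets higher and 1 lower, where 3.00% of all genes were higher and 1.98% lower. IRE1-XBP1 targets lower with both were 2 with no low-count filter and 0 to 2 with one library left out (2 without siNC replicate 1 or siZIP7_1 replicate 2, 0 without siZIP7_1 replicate 3). ATF6 targets lower with both were 0 with DESeq2 and 0 when every library needed at least 10 counts, and 0 to 1 with one library left out (0 without siNC replicate 1, siNC replicate 3 or siZIP7_2 replicate 3). PERK-ATF4 targets higher with both were 7 with upper-quartile scaling and 7 with at least 10 counts. They were 3 with no low-count filter and 3 to 5 with 1 library left out. ATF6 targets higher with both were 8 with no low-count filter and 7 to 9 with 1 library left out, fewest without siNC replicate 1. IRE1-XBP1 targets higher with both were 8 with no low-count filter, 11 with upper-quartile scaling and 9 with any 1 library left out. Upper-quartile scaling moved the median log2 fold change of all genes with siZIP7_2 by 0.11. With siZIP7_2 the list medians were then 0.41 (IRE1-XBP1), 0.50 (ATF6) and 0.12 (PERK-ATF4). With at least 10 counts they were 0.38, 0.48 and 0.090, and the ATF6 median with siZIP7_1 was 0.57. With no low-count filter the medians with siZIP7_2 were 0.34 (ATF6) and -0.14 (PERK-ATF4). The PERK-ATF4 median with siZIP7_1 was -0.15 to -0.052 with one library left out, lowest without siZIP7_1 replicate 3. The cause of these shifts was not tested. As a replicate block, the replicate number left 5 genes higher and 5 lower with siZIP7_1 and 7 and 3 with siZIP7_2. Deviations from the group mean had correlations of -0.250 to 0.242 between libraries of the same number in different groups. Libraries of unlike number had correlations of -0.398 to 0.324. These values cannot show whether the numbers pair the samples. Counts cannot show XBP1 splicing, eIF2α phosphorylation or ATF6 cleavage, and 3 libraries per group at one time point limit what the p-values cover.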
